A study of Mus musculus with 14 samples.

Results

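The serotonin and tachykinin genes described here are 7 genes chosen by name: Tph1, Ddc, Slc18a1, Gch1, Tac1, Ucn3 and Afp (7 of the 27399 genes of the bulk count files, and 7 of the 20707 genes of the 4 single-cell matrices together). The study grew mouse intestinal organoids, cultures of gut epithelium that renew from their own stem cells, in medium with EGF, Noggin and R-spondin1. The 4 single-cell RNA-seq libraries, 1 per condition, held Chgb-mCherry knock-in reporter organoids after 6 days of 25 µM Isx-9, the same reporter line after 6 days of 0.05% DMSO (the vehicle), the untreated reporter line, and untreated wild-type organoids. In the reporter line mCherry is knocked in at Chgb, which encodes a granule protein of hormone-secreting cells, and the Isx-9 and DMSO libraries both carry it. The 4 bulk RNA-seq libraries came from an Lgr5-EGFP knock-in line: its stem cells were sorted after 6 hours of Isx-9 or of DMSO at those concentrations, 2 libraries each. Nothing in the labels says that the 2 came from separate cultures, so the spread behind each p-value may be technical.

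Enterochromaffin cells, the serotonin-making type of enteroendocrine cell, build serotonin from tryptophan in 2 enzymatic steps. Tph1 encodes the tryptophan hydroxylase of non-neuronal tissues, the rate-limiting step, which needs the cofactor tetrahydrobiopterin, and Gch1 encodes GTP cyclohydrolase, the first enzyme of cofactor synthesis. Ddc encodes the aromatic amino acid decarboxylase that yields serotonin, and Slc18a1 encodes VMAT1, the transporter that loads it into vesicles. Tac1 encodes the precursor of substance P and neurokinin A, peptides that many mouse enterochromaffin cells make beside serotonin. Ucn3 encodes urocortin 3, a peptide of the corticotropin-releasing factor family, and Afp encodes alpha-fetoprotein, a secreted protein of fetal liver and yolk sac. The last 2 genes are neither serotonin nor tachykinin genes.

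After filtering, 9185 Isx-9, 8969 DMSO, 9610 reporter and 8744 wild-type cells were used, with median depths of 8888, 13388, 12633 and 15007 UMIs (unique molecules counted) per cell, and 13 to 35 cell barcodes were shared between any 2 libraries. Doublet calling (Scrublet) marked 831 Isx-9 barcodes but 0, 0 and 1 in the DMSO, reporter and wild-type libraries, so the calls are not comparable between libraries and doublets may remain in those 3. Cells were clustered without the 7 genes and without the genes of their pathways. The 3 clusters led by enteroendocrine genes form the class called enteroendocrine-like: 4885 Isx-9 cells, 627 DMSO cells, 680 reporter cells and 678 wild-type cells. Different clusters held this class in the 2 treatments. Of the Isx-9 cells, 4111 lay in a cluster led by Pcsk1n and Chgb and 612 in one with Neurog3 among its leading genes, and neither cluster held a DMSO cell. The other 162 Isx-9 cells and all 627 DMSO cells lay in a cluster led by Gcg and Nts, which is called the shared cluster below. With 1 library per condition there is no test of any single-cell difference. Levels are CPM (a gene's UMIs scaled to a common library total, the usual counts-per-million unit) over all cells of a class, and every interval is an exact 95% interval that covers counting error only.

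Promoters are shown for 4 genes on which the results turn: Gch1, which rose in stem cells, Tph1 and Tac1, whose co-detection differed, and Afp, with the lowest ratio. They come from RefSeq (GRCm38.p6), which had entries for 6 of the 7 genes, and run from 250 bases before to 50 after an annotated start, 5′ to 3′ along the gene. Capitals mark matches to TGACG (part of the cyclic AMP response element), CAGATG (a box of neurogenic basic helix-loop-helix factors) and TATAAA on either strand.
Gch1, chr14:47189364-47189663, minus strand: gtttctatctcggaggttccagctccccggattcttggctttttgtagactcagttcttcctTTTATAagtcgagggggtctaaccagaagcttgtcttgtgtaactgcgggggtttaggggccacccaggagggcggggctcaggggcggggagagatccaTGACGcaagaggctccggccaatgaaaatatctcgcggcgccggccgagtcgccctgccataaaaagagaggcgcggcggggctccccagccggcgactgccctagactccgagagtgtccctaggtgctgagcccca
Tph1, chr7:46667328-46667627, minus strand: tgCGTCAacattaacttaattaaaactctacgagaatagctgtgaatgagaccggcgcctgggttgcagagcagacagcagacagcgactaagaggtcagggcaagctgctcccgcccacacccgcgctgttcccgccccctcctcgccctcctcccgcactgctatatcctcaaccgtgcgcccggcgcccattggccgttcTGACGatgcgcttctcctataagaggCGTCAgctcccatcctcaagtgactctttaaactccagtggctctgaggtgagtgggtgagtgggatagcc
Tac1, chr6:7554811-7555110, plus strand: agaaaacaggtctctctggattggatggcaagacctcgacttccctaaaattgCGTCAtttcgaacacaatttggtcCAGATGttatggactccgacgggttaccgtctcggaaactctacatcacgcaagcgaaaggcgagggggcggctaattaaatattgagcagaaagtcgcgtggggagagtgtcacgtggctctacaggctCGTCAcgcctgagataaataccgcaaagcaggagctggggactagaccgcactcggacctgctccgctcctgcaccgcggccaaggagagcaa
Afp, chr5:90490464-90490763, plus strand: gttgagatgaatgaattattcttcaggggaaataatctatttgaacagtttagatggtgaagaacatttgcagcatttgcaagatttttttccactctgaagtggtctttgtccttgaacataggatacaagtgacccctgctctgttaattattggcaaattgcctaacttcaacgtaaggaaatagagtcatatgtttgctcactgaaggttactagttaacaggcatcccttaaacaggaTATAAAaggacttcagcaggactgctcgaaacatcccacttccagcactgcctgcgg
TGACG occurs 3 times in the Tph1 window shown, 1 time in that of a second annotated Tph1 start (chr7:46672488-46672787), 2 times in the Tac1 window and 1 time in the Gch1 window, and 20.8% of 32851 promoters of this length hold it. CAGATG occurs 1 time each in the Tac1 and Ucn3 windows (17.2% of promoters), and TATAAA 1 time each in the Gch1 and Afp windows and in 1 of 2 Ddc windows (13.6%). CAGCTG (16.3% of promoters), the full element TGACGTCA (1.79%) and the MEF2 consensus (3.19%) were searched as well and occur in none of the 8 windows of these genes. These are matches of letters, not measured binding.

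Over all cells, 6 of the 7 genes were at least 2-fold higher in the Isx-9 library than in the DMSO library (30.9% of 14812 genes were) and 1, Afp, was at least 2-fold lower (4.56% were). Tac1 stood at 1320 CPM in Isx-9 organoids, 128 CPM in DMSO, 137 CPM in reporter and 78.0 CPM in wild-type organoids, a ratio of Isx-9 to DMSO of 10.3 (10.2 to 10.5). Slc18a1 stood at 131 CPM in Isx-9 organoids and 10.3 CPM in DMSO organoids, a ratio of 12.7. Gch1, Ucn3, Tph1 and Ddc had ratios of 3.59, 2.96, 2.46 and 2.03, and Afp one of 0.0315 (0.0263 to 0.0374). These whole-library ratios mix the level within cells with the number of enteroendocrine-like cells, which was 53.2% of cells in the Isx-9 library and 6.99% in the DMSO library. The median gene had a log2 ratio of 0.38 over all cells and of 0.23 within enteroendocrine-like cells.

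Within enteroendocrine-like cells the 7 genes separated. Slc18a1 alone was at least 2-fold higher with Isx-9 (1 of 7, where 20.1% of 12856 genes were), and Tph1, Ucn3 and Afp were at least 2-fold lower (3 of 7, where 3.67% were). Ddc, Gch1 and Tac1 lay between those limits. The counts depended on how the class was drawn, and each alternative redrew it. Slc18a1 stayed below 2-fold (1.14 to 1.31) when called doublets were kept, when the class was any cell with at least 3 enteroendocrine markers, or when the 8% of cells with the highest doublet scores were removed from each library, so 0 of 7 were then 2-fold higher. The class then held 5696, 7129 and 4950 Isx-9 cells and 431, 681 and 350 DMSO cells, in that order of settings. In the shared cluster alone, Slc18a1 had a ratio of 3.43 and only Afp (0.0761) was at least 2-fold lower.

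**Figure D1:**
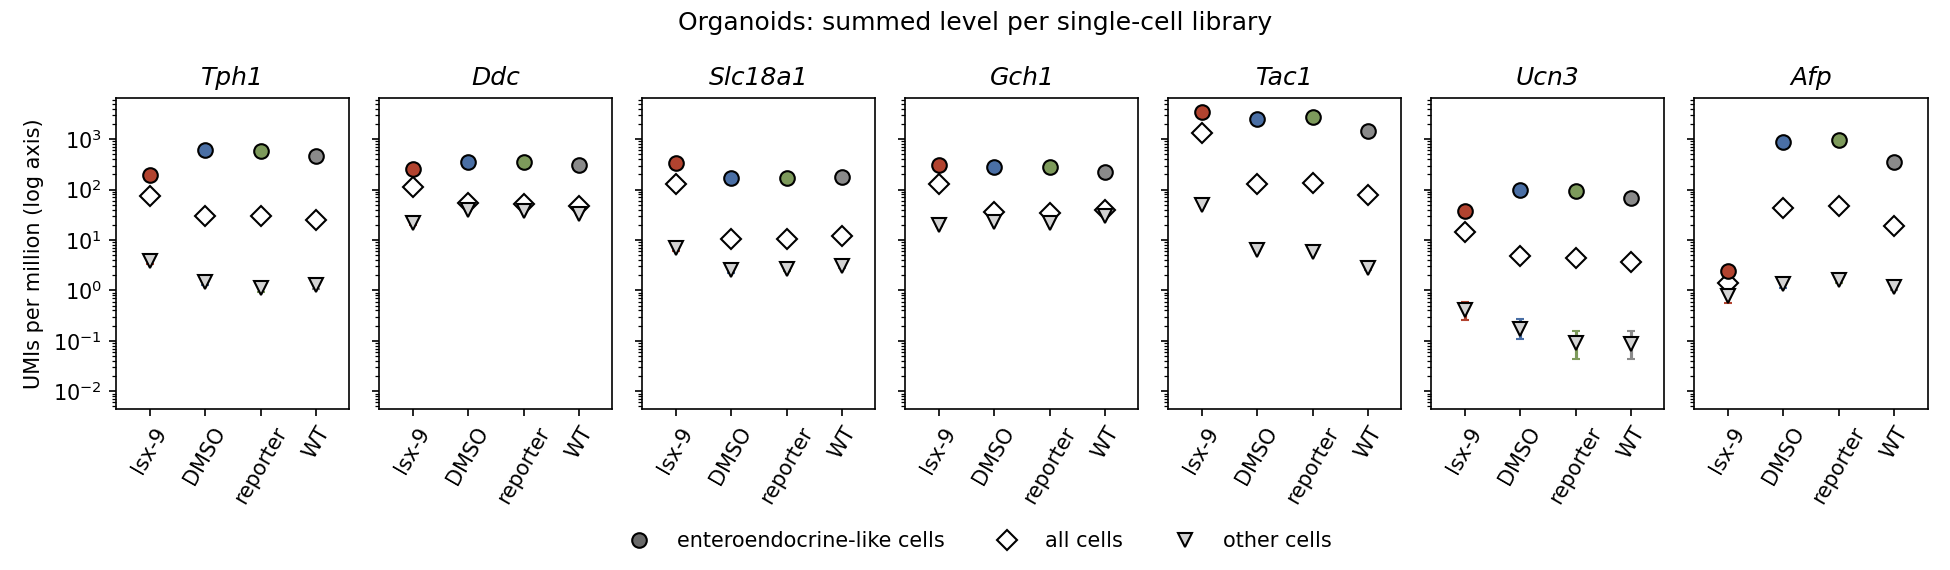
Level of each gene in each single-cell library, in CPM on a log axis, over enteroendocrine-like cells (circles), all cells (diamonds) and all other cells (triangles), with exact Poisson intervals that are mostly smaller than the symbols. In the Isx-9 library Tph1, Ucn3 and Afp have lower circles than in the other 3 libraries while Slc18a1 has a higher one. The Isx-9 Afp circle lies closer to the triangle of other cells than in the other 3 libraries, at 2.40 against 0.767 CPM.

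Among the synthesis genes, Tph1 differed most. It stood at 193 CPM (188 to 197) in Isx-9 enteroendocrine-like cells, against 609 CPM (589 to 629) in DMSO, 595 CPM in reporter and 461 CPM in wild-type ones, a ratio of Isx-9 to DMSO of 0.317 (0.304 to 0.330). The Isx-9 value lay below all 3 others. Cells with the gene had less of it, and the share of cells with it depended on thinning. Unthinned, 33.2% (31.9 to 34.6) of Isx-9 and 34.8% (31.0 to 38.6) of DMSO enteroendocrine-like cells had a Tph1 UMI, with overlapping intervals. After thinning every cell to 3000 UMIs, 22.9% of Isx-9 and 32.5% of DMSO cells had one. Among cells with any, unthinned, the median was 2 UMIs in Isx-9 and 14 in DMSO cells, at median depths of 7243 and 8147 UMIs in the class. Cells with 10 or more Tph1 UMIs numbered 172 of 4885 with Isx-9 (3.52%) and 139 of 627 with DMSO (22.2%). In the redrawn classes the ratio was 0.175 with doublets kept, 0.197 with at least 3 markers and 0.154 with the 8% removed. By cluster, the 162 Isx-9 cells in the cluster shared with DMSO had 591 CPM against 609 CPM in the DMSO cells there, a ratio of 0.970 (0.850 to 1.10). These levels rest on 251 Tph1 UMIs in the 162 Isx-9 cells and 3687 in the 627 DMSO cells. The Isx-9 cells there were thus shallower per cell, and 32.7% of them had a Ddc UMI, against 79.3% of the DMSO cells. The large Isx-9 cluster had Tph1 at 221 CPM, and the Neurog3 cluster had it at 4.55 CPM.

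Ddc was at 256 CPM in Isx-9 and 350 CPM in DMSO enteroendocrine-like cells, a ratio of 0.730 (0.696 to 0.766), with reporter and wild-type cells at 349 and 311 CPM. Gch1 was at 305 CPM in Isx-9 and 286 CPM in DMSO cells, a ratio of 1.07 (1.01 to 1.12). That ratio for Gch1 was below 1 (0.677 to 0.953) under those 3 alternatives and in the shared cluster, so it has no stable direction. Ddc was below 1 in all 4 (0.474 to 0.624). Both enzymes serve more than serotonin synthesis, and both were found outside the class, as described below.

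Slc18a1, the vesicle loader, was at 336 CPM (330 to 342) in Isx-9 enteroendocrine-like cells, against 167 CPM (157 to 177) in DMSO, 168 CPM in reporter and 179 CPM in wild-type ones. The ratio to DMSO was 2.02 (1.89 to 2.15), and 58.9% of Isx-9 and 35.5% of DMSO cells had a UMI after thinning. The related transporter Slc18a2 (VMAT2) differed in the opposite direction, with 25.7 CPM in Isx-9 and 54.5 CPM in DMSO cells and a ratio of 0.472 (0.415 to 0.536).

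Of the 2 peptide genes, Tac1 was the more widely detected. It was at 3420 CPM (3400 to 3440) in Isx-9 and 2550 CPM (2510 to 2590) in DMSO enteroendocrine-like cells, a ratio of 1.34 (1.32 to 1.36), which was below 1 (0.644 to 0.821) under the same 4 alternatives, so its level within cells has no stable direction. Its detection differed more: 74.5% of Isx-9 and 40.5% of DMSO cells had a Tac1 UMI after thinning, while the median among cells with any, unthinned, was 18 UMIs in Isx-9 and 31 in DMSO cells. In cells outside the class, 11.2% in the Isx-9 library and 1.07% in the DMSO library had a Tac1 UMI after thinning, at levels of 1.42% and 0.253% of that in the class, and Chgb stood outside the class at 0.848% and 0.242% of its level inside it. The source of these UMIs was not tested.

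Ucn3 was at 37.9 CPM (35.9 to 39.9) in Isx-9 and 99.3 CPM (91.5 to 108) in DMSO enteroendocrine-like cells, a ratio of 0.382 (0.347 to 0.421), with 91.7 CPM in reporter and 68.5 CPM in wild-type cells. It was a gene of few cells: the 75 Isx-9 cells and the 17 DMSO cells with most Ucn3 carried 1 in 2 of its UMIs in the class. With doublets kept its ratio was 0.211, and with the 8% removed 0.181. Afp was at 2.40 CPM (1.93 to 2.97) in Isx-9 enteroendocrine-like cells, against 897 CPM (873 to 921) in DMSO, 964 CPM in reporter and 349 CPM in wild-type ones, a ratio of 0.00268 (0.00214 to 0.00331). The Afp of DMSO cells was concentrated, with 1 in 2 UMIs in 8 cells. The highest count in a cell was 17 with Isx-9 and 471 with DMSO. After thinning, 0.332% (0.186 to 0.547) of Isx-9 enteroendocrine-like cells had an Afp UMI against 0.192% (0.0831 to 0.379) of other Isx-9 cells, with overlapping intervals. Unthinned, its level in those other cells was 0.767 CPM (0.562 to 1.02), below the 2.40 CPM of the class. In the cluster shared by both treatments, Ucn3 was at 91.8 CPM in Isx-9 and 99.3 CPM in DMSO cells, and Afp at 68.2 CPM in Isx-9 and 897 CPM in DMSO cells. The Isx-9 values there rest on 39 Ucn3 and 29 Afp UMIs, found in 6.79% and 2.47% of 162 cells.

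The genes differed in how much of their RNA lay in the enteroendocrine-like class. The class held 96.8% of Tph1, 97.7% of Tac1 and 98.3% of Ucn3 UMIs with Isx-9, and 95.3%, 95.2% and 96.6% with DMSO. It held 87.9% of Ddc, 90.2% of Gch1 and 96.8% of Slc18a1 UMIs with Isx-9, and 30.9%, 38.5% and 76.8% with DMSO. For Afp the shares were 65.4% with Isx-9 and 97.2% with DMSO. Such shares also depend on the size of the class, 53.2% of Isx-9 and 6.99% of DMSO cells. The level outside the class, as a percent of that inside, differed less. For Ddc it was 8.33% with Isx-9 and 11.2% with DMSO, for Gch1 6.55% and 8.0%, and for Slc18a1 2.02% and 1.51%. Ddc came next in enterocyte-like cells, at 126 CPM in DMSO, 113 CPM in reporter and 88.6 CPM in wild-type organoids, and stood between 7.22 and 37.3 CPM in the remaining classes. Gch1 came next in a cluster led by Fabp6, an ileal bile acid binding protein, at 117, 120 and 113 CPM in DMSO, reporter and wild-type cells, followed by enterocyte-like cells at 80.0, 71.2 and 87.0 CPM, apart from a cluster of shallow cells led by Gm26917 with 70.4 to 108 CPM. Slc18a1 was also above its surroundings in Paneth-like cells, at 23.7 to 35.0 CPM over the DMSO, reporter and wild-type libraries, and in goblet-like cells, at 12.4 to 14.4 CPM, with stem-like cells at 0.351 to 0.780 CPM. Tac1 in Paneth-like cells was at 4.49, 10.4 and 3.57 CPM in DMSO, reporter and wild-type organoids, while in tuft-like cells it was at 70.4, 91.6 and 8.36 CPM, carried by 3.35%, 5.09% and 1.27% of the cells. The tuft-like cells of the DMSO library also had Chgb at 374 CPM and Tph1 at 14.6 CPM, and the part of doublets was not tested. The Isx-9 library had 2 enterocyte-like, 10 Paneth-like and 6 goblet-like cells, too few for levels. Its Cym-led cluster of 3037 cells had Ddc at 21.9 CPM, Gch1 at 18.3 CPM and Slc18a1 at 7.17 CPM.

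Co-detection within single cells was compared in the 4521 Isx-9 and 575 DMSO enteroendocrine-like cells deep enough to be thinned to 3000 UMIs. A Tph1 cell nearly always had Tac1 in both conditions: 94.4% (92.8 to 95.7) with Isx-9 and 93.0% (88.4 to 96.2) with DMSO. Of all cells of the class, 74.5% with Isx-9 but 40.5% with DMSO had Tac1. The reverse, Tph1 among Tac1 cells, differed. Of cells with Tac1, 29.1% (27.5 to 30.6) had Tph1 with Isx-9, against 74.7% (68.6 to 80.1) with DMSO, 77.3% in reporter and 78.9% in wild-type organoids. Cells with Tac1 and no Tph1 UMI made up 52.8% of the class with Isx-9, 10.3% with DMSO, 9.21% in reporter and 7.15% in wild-type organoids. For comparison, 11.2% of Isx-9 and 1.07% of DMSO cells outside the class had a Tac1 UMI. With at least 10 Tac1 UMIs per cell, unthinned, 50.2% of Isx-9 and 88.9% of DMSO Tac1 cells had Tph1. Among Tph1 cells the thinned median was 1 Tph1 UMI with Isx-9 and 5 with DMSO. A cell with Tph1 RNA is thus more easily missed with Isx-9, and the part of this was not tested.

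**Figure D2:**
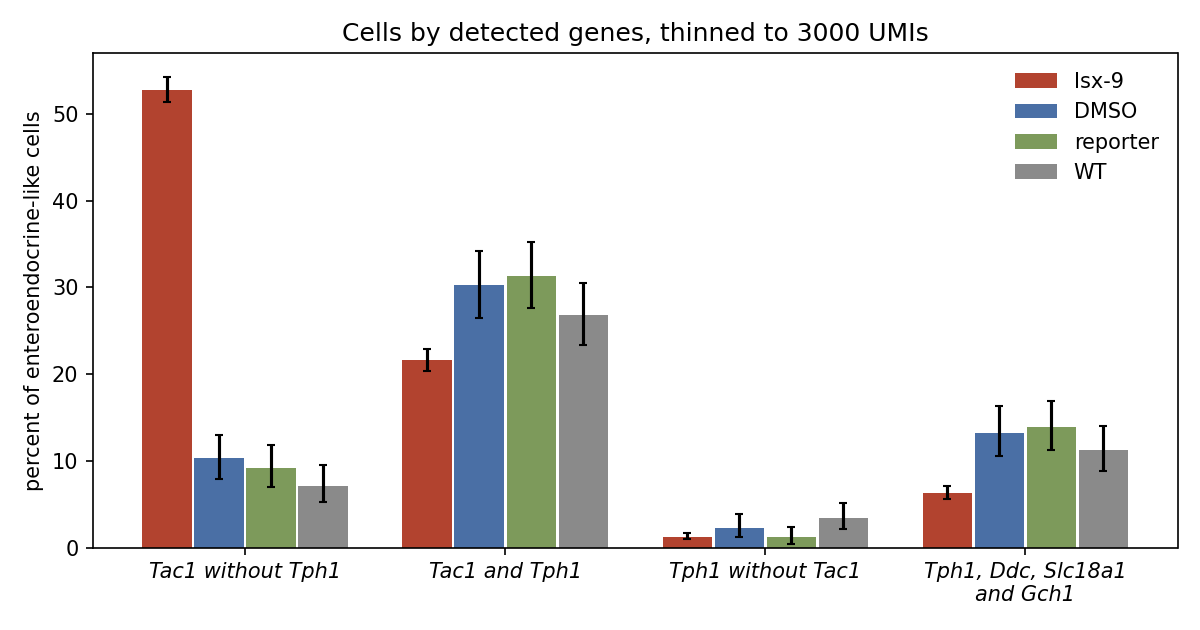
Percent of enteroendocrine-like cells of each library, thinned to 3000 UMIs, in which the named genes had at least 1 UMI, with exact binomial intervals. The bar for Tac1 without Tph1 is 52.8% with Isx-9 and between 7.15% and 10.3% in the other 3 libraries, while the bar for all 4 serotonin genes is 6.35% with Isx-9 and 11.2% to 13.9% in the others.

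Tac1 levels were also compared between cells with and without Tph1, unthinned. In Isx-9 enteroendocrine-like cells Tac1 was at 5820 CPM in cells with Tph1 and 2130 CPM in cells without, a ratio of 2.72 (2.69 to 2.76). In DMSO cells it was at 7350 CPM with Tph1 and 167 CPM without, a ratio of 44.1 (40.8 to 47.7). For Slc18a1 that ratio was 1.54 (1.49 to 1.60) in Isx-9 cells and 5.46 (4.74 to 6.30) in DMSO cells. Cells with Tph1 had a median of 2 Tph1 UMIs with Isx-9 and 14 with DMSO. The Isx-9 group without a Tph1 UMI may thus hold more cells with undetected Tph1 RNA, and the part of this was not tested.

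The complete set of synthesis and loading genes, Tph1, Ddc, Slc18a1 and Gch1, was found in 6.35% (5.65 to 7.10) of Isx-9 and 13.2% (10.6 to 16.3) of DMSO enteroendocrine-like cells, with 13.9% in reporter and 11.2% in wild-type organoids. Without thinning the shares were 22.7% (21.5 to 23.9) with Isx-9 and 25.8% (22.5 to 29.5) with DMSO, with overlapping intervals. Ddc, Slc18a1 and Gch1 together without a Tph1 UMI showed the opposite order, at 11.6% (10.7 to 12.6) with Isx-9 and 3.30% (2.00 to 5.11) with DMSO, or 27.6% and 13.1% without thinning. Of Tph1 cells, 27.7% with Isx-9 and 40.6% with DMSO had the other 3, and without thinning 68.3% with Isx-9 and 74.3% with DMSO. Gene by gene, Tph1 cells had Ddc in 57.6% and 70.6%, Gch1 in 66.4% and 78.1%, and Slc18a1 in 72.6% and 67.9% of cases with Isx-9 and with DMSO. The intervals for Slc18a1 overlapped (69.8 to 75.3 and 60.7 to 74.5), and those for Ddc (54.6 to 60.7 and 63.5 to 77.0) and Gch1 did not. Of all cells of the class, 58.9% with Isx-9 and 35.5% with DMSO had Slc18a1. With no thinning, 93.1% of Isx-9 and 88.5% of DMSO Tph1 cells had Slc18a1.

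**Figure D3:**
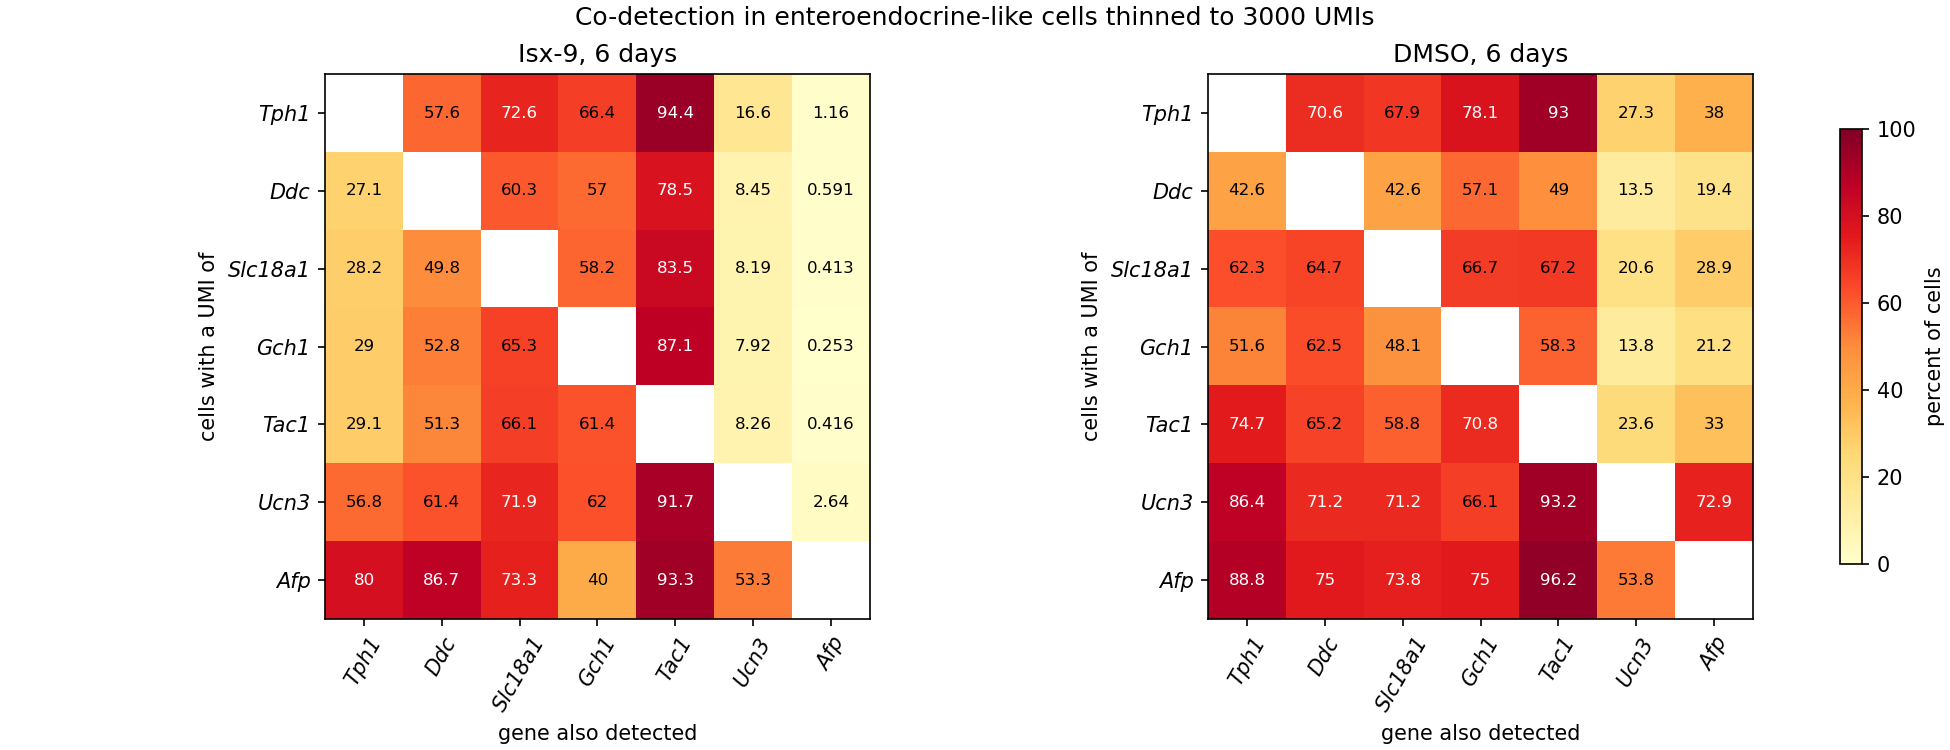
Percent of the cells with a UMI of the row gene that also had a UMI of the column gene, in enteroendocrine-like cells thinned to 3000 UMIs, with Isx-9 on the left and DMSO on the right. The Tac1 row reads 29.1 for Tph1 with Isx-9 and 74.7 with DMSO, the Afp column stays at or below 2.64 with Isx-9, and the Afp row with Isx-9 rests on 15 cells.

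Ucn3 was found mostly in cells that also had Tph1 and Tac1, and differed in whether Afp was there too. Of the 303 Ucn3 cells with Isx-9, 56.8% had Tph1, 91.7% had Tac1 and 2.64% (1.15 to 5.14) had Afp. Of the 59 with DMSO, 86.4% had Tph1, 93.2% had Tac1 and 72.9% (59.7 to 83.6) had Afp. Of the 80 DMSO cells with Afp, 88.8% had Tph1 and 53.8% had Ucn3. Tph1 cells had Ucn3 in 16.6% of cases with Isx-9 and 27.3% with DMSO, and Afp in 1.16% with Isx-9 and 38.0% with DMSO. Afp in Ucn3 cells, unthinned, was at 16.1 CPM with Isx-9 and 6160 CPM with DMSO, against 0.594 and 74.8 CPM in cells without Ucn3. In Tph1 cells it was at 6.25 and 2700 CPM, against 0.34 and 2.97 CPM in cells without Tph1. The Isx-9 values rest on 87 Afp UMIs in the class. Tph1 cells also differed in what else they carried: Lmx1a, a transcription factor of enterochromaffin cells, was found in 18.2% with Isx-9 and 47.1% with DMSO, while Cck, a hormone gene of another enteroendocrine type, was found in 83.3% (80.9 to 85.5) and 21.4% (15.7 to 28.0). In cells without Tph1, Cck was found in 80.2% with Isx-9 and 41.2% with DMSO. Its level differed otherwise, unthinned: 3750 CPM in Isx-9 and 2450 CPM in DMSO cells with Tph1, and 4770 and 11100 CPM in cells without. Over the whole class Cck had a ratio of Isx-9 to DMSO of 0.535.

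DMSO and untreated reporter cells had close values. In enteroendocrine-like cells the ratio of DMSO to untreated reporter ran from 0.922 for Tac1 to 1.08 for Ucn3 over the 7 genes. Reporter and wild type differed more: Afp was at 964 CPM in reporter and 349 CPM in wild-type cells, a ratio of 2.76 (2.63 to 2.89), Tac1 had a ratio of 1.88 (1.83 to 1.92), Ucn3 1.34, Tph1 1.29, Gch1 1.23, Ddc 1.12 and Slc18a1 0.937. The Afp ratio rests on few cells. In the class 1 reporter cell held 507 of 5959 Afp UMIs and 1 wild-type cell 504 of 2420, and the interval leaves out such spread between cells. A cluster led by Xist held 1458 wild-type and 134 reporter cells, and another led by Xist 866 and 56, both with Hoxb genes among their leading genes. With 1 library each, line, source animal and culture cannot be told apart.

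Likeness of expression was measured as Pearson's r of log2(CPM + 1) over 50 units, each the cells of 1 cluster in 1 library with at least 50 cells, among 13303 genes. The units share libraries and clusters, so r is a description. The gene most like Tph1 was Chga (0.964), followed by Pax6 (0.963), Lmx1a (0.962) and Etv1 (0.960). Tac1 was most like Chgb (0.963) and Ucn3 most like Tekt4 (0.992). Afp was closest to Trpa1 (0.943), an irritant-gated channel known in enterochromaffin cells, Slc18a1 to C2cd4c (0.965), Gch1 to Krt20 (0.922), a keratin of differentiated gut epithelium, and Ddc to Gpr22 (0.891). Among the 7 themselves, Tph1 went with Ucn3 (0.96) and Tac1 (0.93), and the lowest pair was Ddc with Slc18a1 (0.53).

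The surrounding pathway was read from 13 lists of 93 genes, the 7 genes among them. Within enteroendocrine-like cells, 58 had at least 100 UMIs over both libraries, of which 11 were at least 2-fold higher and 15 at least 2-fold lower with Isx-9 (over all genes 20.1% were higher and 3.67% lower), with a median log2 ratio of 0.10 against 0.23 for all genes. Of 9 transcription factors of the lineage, Neurog3 (2.56) and Pax4 (2.83) were higher and Lmx1a (0.399) and Mnx1 (0.438) lower, while Fev, a factor of serotonin cells, had a ratio of 1.30. Of 9 other hormones, 6 (Gcg, Ghrl, Gip, Nts, Pyy and Sst) were lower, and Gal was higher (6.73). In the urocortin family Ucn was at 39.2 CPM in Isx-9 and 1.16 CPM in DMSO cells, 1420 against 7 UMIs, a ratio of 33.9 (16.4 to 84.6), while Ucn3 was lower. Among other amine enzymes Gad1, which makes GABA, had a ratio of 14.3 (7.96 to 28.8) and Hdc, which makes histamine, 3.69 (2.77 to 5.02). Tph2, the neuronal tryptophan hydroxylase, had 1 UMI in Isx-9 and 0 in DMSO enteroendocrine-like cells.

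Sorted stem cells were compared after 6 hours of treatment, at 18909542 to 19487264 counts per library. Of the 6 genes that passed the filter on low counts, 1 (Gch1) rose with Isx-9 and 0 fell at an adjusted p under 0.05 (edgeR quasi-likelihood test, 2 against 2 libraries), where 47.3% of 17418 genes were called, 4755 of them higher (27.3%) and 3488 lower (20%). The call for Gch1 held under every scaling, filter and left-out library tried (log2 fold changes of 1.02 to 1.20). It had 532 and 528 counts in the Isx-9 libraries, against 240 and 221 in the DMSO libraries, or 26.4 ± 0.116 and 12.5 ± 0.525 CPM (SD, n = 2 each). Both Isx-9 libraries lay above both DMSO libraries, the log2 fold change was 1.07 (SE 0.15) and the adjusted p 0.000148 (edgeR), and the authors' deposited table gives 1.08 with an adjusted p of 2.49e-06. In such bulk samples more RNA per cell and more cells with the RNA cannot be told apart.

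**Figure D4:**
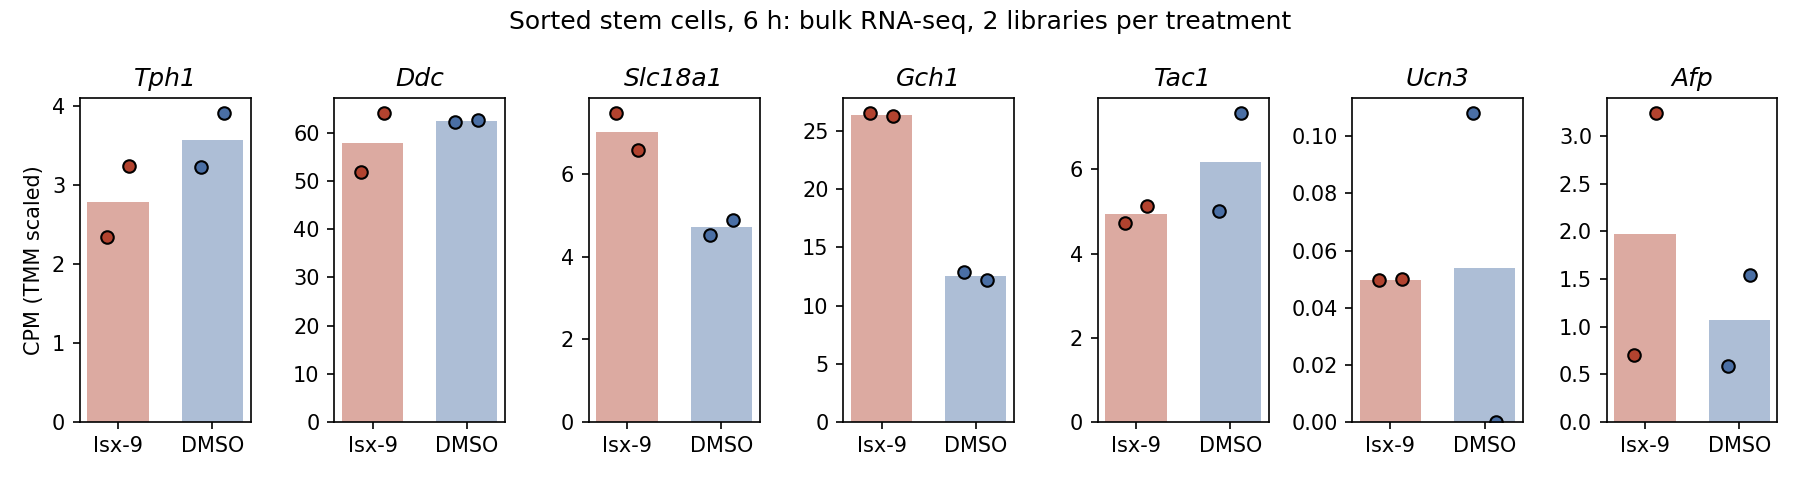
TMM-scaled CPM of each gene in the bulk libraries of sorted stem cells after 6 hours, with bars at the mean of the 2 libraries and points for each library. Only for Gch1 and Slc18a1 do both Isx-9 points lie above both DMSO points, and the vertical scale differs between genes.

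Slc18a1 had 150 and 132 counts with Isx-9, against 84 and 89 with DMSO, without overlap, but its log2 fold change of 0.58 (SE 0.27) did not pass, with an adjusted p of 0.1 (edgeR). Tph1 had 47 and 65 counts with Isx-9, against 60 and 71 with DMSO (log2 fold change -0.35, edgeR adjusted p 0.468). Tac1 had 95 and 103 against 93 and 133 (-0.32, edgeR adjusted p 0.407), and Ddc, the most counted of the 7 in these cells, 1042 and 1282 against 1156 and 1138 (-0.11, edgeR adjusted p 0.456). In these 3 genes the groups overlapped in CPM. Afp had 14 and 65 counts with Isx-9, against 11 and 28 with DMSO, so the groups overlapped and the 2 Isx-9 libraries lay farther apart than the group means (0.88, edgeR adjusted p 0.346). Ucn3 had 1 and 1 counts with Isx-9 and 2 and 0 with DMSO and was not tested.

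Of the 93 pathway genes 60 were tested in bulk: 22 rose and 7 fell (over all genes 27.3% rose and 20% fell), with a median log2 fold change of 0.19 against 0.02 for all genes. With library size alone as scaling 3 fell, and leaving out 1 library gave 2 to 4. Around Gch1, the recycling genes Qdpr (-0.39) and Pcbd1 (-0.36) fell while Pts (0.01) and Spr (0.03), the later steps of synthesis, did not pass. With library size alone Pcbd1 (-0.24) did not pass, nor did Qdpr (-0.27) without the first Isx-9 library. The aromatic amino acid carriers Slc7a8 (1.45) and Slc16a10 (0.73) rose and Slc7a5 (-0.53) fell. Among the genes that clear serotonin, the uptake transporters Slc6a4 (0.99), Slc22a3 (1.14) and Slc29a4 (2.91) and the oxidase Maob (1.32) rose, and Maoa (-0.15) did not pass. Of 5 tested genes of peptide processing, 4 rose: Pcsk1n (3.58), Pcsk1 (1.42), a prohormone convertase, Cpe (1.30) and Pam (1.30), which amidates peptides such as substance P. The Pcsk1n call was lost without the filter on low counts and without the first Isx-9 library. Of 4 tested serotonin receptors 2 rose: Htr1b (5.05) and Htr6, with 75 counts in Isx-9 and 1 in DMSO libraries, a ratio of 68.6 (11.9 to 2740). Lmx1a rose (2.83), with 116 and 71 counts in Isx-9 against 19 and 5 in DMSO libraries, as did Neurog3 (1.31), while Fev (-0.46) did not pass. Crhr2, a receptor for urocortins, had 128 counts over the 2 Isx-9 libraries and 0 over the 2 DMSO libraries, at least 39.0-fold higher taking 3 counts over the DMSO pair as the floor. Penk, at 90 and 0 counts, was at least 27.4-fold higher. Alb (2.35) and Afm (3.17), the neighbours of Afp in the albumin gene family, rose. The hepatic marker list summed to 59.6 and 53.4 CPM with Isx-9, against 19.4 and 16.3 CPM with DMSO, and in the day-6 libraries to 274 CPM with Isx-9 and 70.1 CPM with DMSO. In bulk most of that rise was Trf, at 39.4 and 37.8 against 6.19 and 5.4 CPM, and 2 of 4 tested genes of the list rose. At day 6 Alb had a ratio of 2.55 over all cells but 0.308 (0.279 to 0.341) within enteroendocrine-like cells. Of the other amine enzymes in bulk, Gad2 rose (4.98) and Hdc fell (-1.66).

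The label of these cells was checked with Lgr5, the stem cell receptor gene, at 316 ± 5.87 CPM in Isx-9 and 359 ± 26.2 CPM in DMSO libraries (SD, n = 2 each), and 7 of 8 stem cell markers fell with Isx-9. The 8 stem cell markers summed to 7680 and 6430 CPM in Isx-9 and 10000 and 9920 CPM in DMSO libraries. The 15 enteroendocrine markers summed to 142 and 149 CPM in Isx-9 and 106 and 165 CPM in DMSO libraries. Markers of other epithelial types summed higher than these 15. Goblet markers were at 835 and 1360 against 1050 and 1220 CPM, and Paneth markers at 1120 and 961 against 1140 and 811 CPM. Enterocyte markers were at 637 and 800 against 705 and 908 CPM. Marker lists of enteric neurons and glia summed to 56.1 and 39.5 CPM with Isx-9, against 5.81 and 6.56 CPM with DMSO (4 of 5 tested genes rose), and mesenchymal markers to 58.4 and 40.5 against 6.24 and 7.27 CPM (4 of 4 tested rose, of 8 listed). Ret made up most of the first sum with Isx-9, at 40.9 and 29.4 CPM, while Chat had 0 and 0 counts and Sox10 25 and 0. Vim was the largest part of the second, at 31 and 20.4 CPM. Of the mesenchymal genes not tested, Dcn had 0 and 0 counts with Isx-9, Col3a1 6 and 0, Col1a2 21 and 2, and Acta2 10 and 9. In the day-6 libraries the same 2 lists summed to 43.7 and 362 CPM with Isx-9 and 5.95 and 35.3 CPM with DMSO, with 8 of 9 and 8 of 8 genes detected with Isx-9. Of 10 mast cell genes, another source of serotonin, 3 had any UMI in the Isx-9 and 4 in the DMSO library, with summed levels of 53.6 and 14.6 CPM. In bulk, the 3 mast cell genes in the files summed to 98.3 and 93.0 CPM with Isx-9, against 33.7 and 31.2 CPM with DMSO. Kit made up most of that sum, at 96.7 and 90.9 CPM with Isx-9 and 27.6 and 27 CPM with DMSO. Hdc fell (-1.66), and Tpsb2 had 4 and 5 counts with Isx-9 against 1 and 0 with DMSO. Whether such other cell types were present, and their part in the results above, was not tested.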

How the data were processed

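Organoid RNA was measured by 10x single-cell RNA-seq and by bulk RNA-seq. Per the submitters' processing notes, Trim Galore 0.6.4, HISAT2, HTSeq 0.12.4, DESeq2 1.24.0, Cell Ranger 3.1.0 and Seurat 3.1.5 were used with build GRCm38. The gene annotation and the strand setting of the counting are not stated in those notes. Deposited by the authors were counts per gene (bulk) and UMI counts per cell, and a table of log2 fold changes with p-values. Bulk counts were tested with edgeR 4.0.16 (R 4.3.3; TMM, quasi-likelihood, Benjamini-Hochberg over 17418 genes). DESeq2 1.42.0, other scalings and filters, and left-out libraries were alternatives. Cells needed 500 genes, 1000 UMIs and at most 20% mitochondrial UMIs. They were clustered with scanpy 1.11.5 (2000 variable genes, 30 components, 15 neighbours, Leiden resolution 1). Folds used genes with at least 100 UMIs over both libraries. Intervals cover counting error only. The bulk test alone was also run on simulated counts. Those had a common dispersion and few changed genes, unlike these data, so that run does not check the p-values given here. By rule, up to 4 called genes with the largest change in each pathway list could be named, plus listed landmarks; not all are named, and Pts, Spr and Cck were added after their values were seen. The genes and lists were chosen with earlier results of these data known. The 6 ATAC samples were not analysed here. Results for some listed genes are not reported here.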

Additional observations from a re-analysis of the deposited data

Results flagged for a closer look

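For 7 of the pathway and landmark genes named by rule, the bulk groups did not overlap and the direction in sorted stem cells after 6 hours was opposite to that over all cells of the organoids after 6 days. Slc6a4, the serotonin uptake transporter, had a log2 fold change of 0.99 in stem cells and a ratio of Isx-9 to DMSO of 0.523 (0.461 to 0.592) in organoids. Hdc, the histamine-forming enzyme, had -1.66 in stem cells and a ratio of 26.1 (19.9 to 34.8). Chga, a granule protein, had -0.71 and a ratio of 6.57 (6.47 to 6.67). Its stem cell call was lost with library size alone, with DESeq2, without the filter on low counts, and without either Isx-9 library or the second DMSO library. Lgr5 had -0.18, which did not pass, and a ratio of 1.42 (1.39 to 1.45). Slc7a5 had -0.53 and a ratio of 1.31 (1.19 to 1.45), Slc16a10 had 0.73 and a ratio of 0.882 (0.817 to 0.952), and Pcbd1 had -0.36 and a ratio of 1.17 (1.15 to 1.19). The median gene had a log2 ratio of 0.38 in organoids, against 0.23 for Pcbd1 and 0.39 for Slc7a5. The ratios over all cells also depend on the size of the enteroendocrine-like class, 53.2% of Isx-9 and 6.99% of DMSO cells. Within that class Chga had a ratio of 0.848 (0.834 to 0.861), lower with Isx-9 as in stem cells. Hdc had 3.69, Slc6a4 0.378, Slc16a10 0.65 and Lgr5 1.39 there, each in the same direction as over all cells. Pcbd1 (0.989 to 1.10) and Slc7a5 (0.908 to 1.51) had no clear direction there. The cells, the time and the assay all differ, and the difference itself was not tested.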

How the results depend on the processing

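With 1 library per condition at day 6, no single-cell difference has a replicate check. In bulk, scaling by library size alone gave 2095 genes lower (3488 in the TMM fit), 3 pathway genes lower and a log2 fold change of 0.02 for Ddc. Leaving out 1 library gave 2062 to 3090 genes lower and 2 to 4 pathway genes lower, with log2 fold changes of -0.24 to 0.04 for Ddc, -0.58 to 1.72 for Afp, -0.34 to 0.05 for Maoa (which passed without the first DMSO library) and -0.84 to 0.03 for Fev. The replicate numbers did not pair the libraries (correlation 0.01), and with the replicate block 4723 genes were higher and 3408 lower, with Gch1 at 1.07. In enteroendocrine-like cells, 0 of the 7 genes were 2-fold higher with doublets kept, with at least 3 markers or with the 8% highest doublet scores removed, and 1 was 2-fold lower in the shared cluster alone. Under these 4 settings in turn, the Gch1 ratio was 0.831, 0.677, 0.752 and 0.953 and the Tac1 ratio 0.756, 0.821, 0.644 and 0.757. The share of all cells with Tph1 was 12.4% with Isx-9 and 2.48% with DMSO after thinning to 3000 UMIs, 19.5% and 3.69% without thinning, 6.37% and 1.85% thinned to 1000, and 10.9% with Isx-9 at 2 or more UMIs. The share of Tac1 cells with Tph1 with Isx-9 was 38.9% unthinned, 27.0% at 2 or more UMIs, 27.2% with at least 3 markers and 50.2% at 10 or more Tac1 UMIs. With DMSO it was 201 of 281 cells unthinned, 86.4% with doublets kept, 91.0% with the 8% removed and 88.9% at 10 or more Tac1 UMIs. In this list only the unthinned and the 10 UMI settings are given for both treatments. Removing the 8%, the 10 UMI minimum and the shared cluster alone were chosen after seeing the data. Use of all deposited barcodes was not run for the enteroendocrine-like class. The causes were not tested.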
